A study of Homo sapiens with 4 samples.

Results

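The genes described here are 32 genes of the unfolded protein response and the integrated stress response, taken by symbol from an RNA-seq table of 26518 genes. The cells were MDA-MB-468, a long-established line derived from a human triple-negative breast carcinoma. All 32 symbols were found in the table. For description the genes were divided by role into 11 ER chaperone and degradation genes of the ATF6 and XBP1 branches, 12 targets of the transcription factor ATF4, 3 sensors and 6 transcription factors. The shSASH1 cells were infected with a lentivirus that expresses a hairpin targeting SASH1, a signalling scaffold, and the shControl cells with the pGIPZ control virus. Cells of both groups were grown in DMEM with serum, selected with puromycin and kept as stable clones. Apart from the virus and the puromycin, which both groups received, nothing in the labels names a treatment that provokes stress. The effect of the virus or the puromycin on these genes was not tested. There were 2 libraries per group. How many clones or hairpins lie behind them was not given in the sources used here, nor whether the cultures were separate. The p-values therefore reflect the spread between these particular libraries, which may be technical.

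The endoplasmic reticulum (ER) folds secreted and membrane proteins, and the unfolded protein response adjusts its capacity through 3 membrane sensors. ATF6 is cleaved into a transcription factor, IRE1 (encoded by ERN1) splices the mRNA of XBP1, and PERK (encoded by EIF2AK3) phosphorylates the translation factor eIF2. Phosphorylated eIF2, which other kinases also produce in amino acid shortage or viral infection, lowers general translation while ATF4 is translated more. This second arm is the integrated stress response. ATF6 cleavage, XBP1 splicing, eIF2 phosphorylation and ATF4 protein are not visible in gene-level RNA values, so the levels below are those of the transcripts alone.

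Values are TPM, a transcript abundance corrected for the length of the gene and for the library total. Levels of different genes may be compared roughly, since the gene lengths used were not given. The values present do not sum to quite the same total in each library. Reads rebuilt from TPM numbered 24361023 and 19527521 in the shSASH1 libraries and 20777441 and 24188452 in the shControl libraries, and the lowest of the 32 genes in any library rested on 85 rebuilt reads. SASH1 stood at 3.65 and 4.01 TPM in shSASH1, against 15 and 13 TPM in shControl (log2 change -1.63 ± 0.13 SE, limma adjusted p = 0.00391). This call was lost without shControl replicate 1 (adjusted p = 0.106) or replicate 2 (0.104), with log2 changes of -1.54 and -1.73. The 7 breast epithelial markers lay between 48.2 and 2203 TPM in all libraries. Of 7 markers of fibroblasts, leukocytes and endothelium, COL1A1 reached 10.9 TPM and the others stayed at or below 2.2 TPM, and of the receptors ESR1 lay between 2.29 and 3.64 TPM and PGR at or below 0.0248 TPM. Within-group spread was wider in shSASH1, with a median SD of 0.126 log2 units, against 0.0507 in shControl.

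All 32 genes had a mean of at least 1 TPM, the filter for testing, which 14458 genes passed. In shSASH1, 9 of the 32 were higher and 1 was lower at a limma adjusted p under 0.05, and 22 did not pass. Over all tested genes 32% passed, 18.8% higher and 13.3% lower, and the 10 of 32 are 31.2%, so the share of calls was near that background. The median log2 change was 0.27, against 0.06 over all tested genes. For 19 genes both shSASH1 libraries lay above both shControl libraries and for 6 genes below, against 41.3% and 32.3% of all tested genes. Voom on rebuilt reads called 8 higher and 3 lower, against 17.6% and 19.5% of all tested genes. Without either shControl library limma called 0 of the 32 and 0 of all genes. At an unadjusted p under 0.05, 8 of the 32 were then higher and 1 lower without replicate 1 (14.6% and 9.19% of all tested genes), and 7 and 1 without replicate 2 (13.8% and 9.18%). Without shSASH1 replicate 1 limma called 22 higher and 5 lower, against 31.4% and 22% of all tested genes. Without shSASH1 replicate 2 it called 11 and 6, against 22.7% and 18.1%. Log2 changes are differences of log2(TPM + 1), shSASH1 minus shControl, which understates the change of genes at low TPM. In RNA from whole cultures, fewer cells with a transcript and less of it per cell cannot be told apart.

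**Figure D1:**
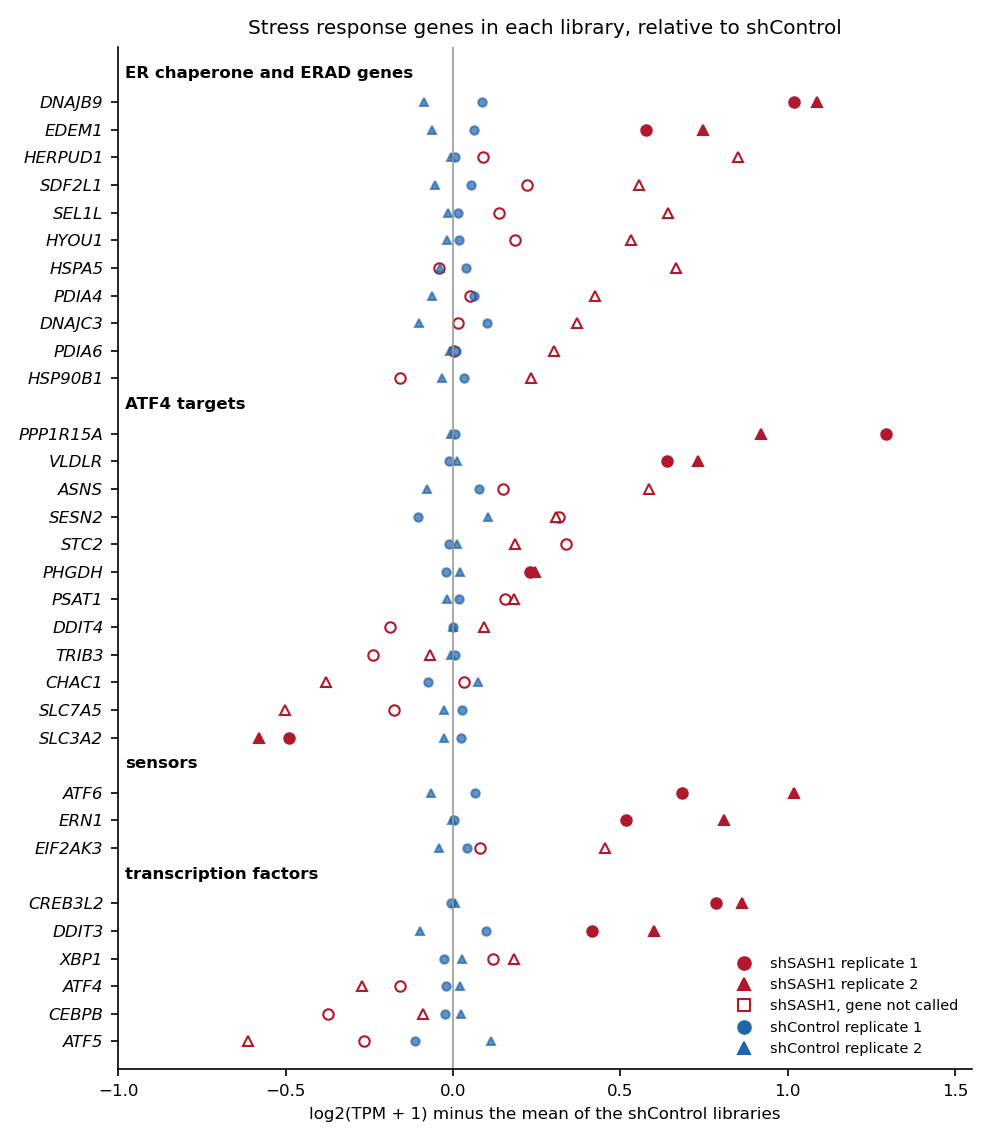
Each row is 1 gene, and the x axis is its log2(TPM + 1) minus the mean of the shControl libraries. Red marks are shSASH1 libraries (filled where the gene passed the test, open where it did not), blue marks are shControl libraries, circles are replicate 1 and triangles replicate 2. All 11 ER genes have the red triangle to the right of the red circle.

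Among the ER chaperone and degradation genes, 2 of 11 rose and none fell, and the median log2 change was 0.36. All 11 changes were above 0, as were 7990 of the 14458 tested genes, but that of HSP90B1 was below 0 with centring on neighbours (-0.01), median-of-ratios scaling (-0.02) and voom (-0.04). The 18.2% that rose are close to the 18.8% of all tested genes. At an unadjusted limma p under 0.05, 4 were higher and 0 lower, against 26.7% and 19.6% of all tested genes, and voom also called 2 higher and 0 lower. The genes that rose were DNAJB9 and EDEM1, neither of which is among the abundant folding enzymes. The group as a whole differed between the shSASH1 libraries, with a median change against the shControl mean of 0.09 in replicate 1 and 0.56 in replicate 2.

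DNAJB9 (chromosome 7, 108569568 to 108574850, hg38, plus strand) encodes ERdj4, an ER co-chaperone that is a classical XBP1 target and restrains IRE1. It was at 74.6 and 78.2 TPM in shSASH1 and at 38.6 and 34.1 TPM in shControl. Both shSASH1 libraries were high and close together, 2.1 times the shControl mean (log2 change 1.05 ± 0.09 SE, adjusted p = 0.0039). Its exons overlap those of PNPLA8 and THAP5 on the other strand, whose reads cannot be told apart without strand. PNPLA8 was at 28.8 and 32.8 TPM in shSASH1 and at 26.4 and 25.6 TPM in shControl, and THAP5 at 26 and 31.3 against 20.8 and 21.9 TPM.

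EDEM1 (chromosome 3, 5187646 to 5219957, plus strand) encodes a lectin that takes misfolded glycoproteins out of the folding cycle for degradation. It measured 57.3 and 64.5 TPM in shSASH1, against 39.8 and 36.4 TPM in shControl. The groups lay apart, by 1.6 times in the means (log2 change 0.66 ± 0.09, adjusted p = 0.0106).

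HSPA5, which encodes BiP, the main ER chaperone of the HSP70 family and a regulator of all 3 sensors, was the most abundant of the 11. It was at 703 and 1148 TPM in shSASH1 and at 744 and 704 TPM in shControl. Replicate 1 of shSASH1 lay at the shControl level and replicate 2 far above it, so the groups overlapped (log2 change 0.31 ± 0.24, adjusted p = 0.364). HERPUD1, an ER membrane protein of the degradation machinery, also had its excess mostly in replicate 2, though its groups did not overlap, with 107 and 182 TPM in shSASH1 against 101 and 100 TPM in shControl (log2 change 0.47 ± 0.26, adjusted p = 0.219). SEL1L, the partner of the ubiquitin ligase HRD1, had 33.9 and 48.5 TPM in shSASH1, against 31.1 and 30.4 TPM in shControl. For SEL1L too the excess over shControl lay mostly in replicate 2 (log2 change 0.39 ± 0.18, adjusted p = 0.162).

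The other folding genes did not pass either. SDF2L1, a co-factor of BiP, was at 263 and 332 TPM in shSASH1 and at 234 and 217 TPM in shControl (log2 change 0.39 ± 0.13, adjusted p = 0.079). HYOU1, a large HSP70-like nucleotide exchange factor, stood at 235 and 299 TPM in shSASH1 and at 209 and 204 TPM in shControl (log2 change 0.36 ± 0.13, adjusted p = 0.095). In SDF2L1 and HYOU1 both shSASH1 libraries exceeded both controls. The protein disulfide isomerases PDIA4 and PDIA6 had 316 and 410, and 343 and 422 TPM in shSASH1, against 319 and 292, and 344 and 340 TPM in shControl, so that replicate 1 was within the shControl range. DNAJC3, a BiP co-chaperone also called P58IPK, measured 77.8 and 100 TPM in shSASH1 and 82.7 and 71.8 TPM in shControl. HSP90B1, the ER paralog of HSP90, was at 442 and 579 TPM in shSASH1, on either side of its 504 and 482 TPM in shControl (log2 change 0.04 ± 0.14, adjusted p = 0.857).

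Promoters are shown because some genes of the ER group carry the best known response elements of this pathway. All 32 genes matched the RefSeq promoter table (GRCh38.p14), which gives 250 bases before and 50 after each of 46 start sites. Searched on both strands were the ER stress response element ERSE (CCAAT and CCACG with 9 bases between), the shorter ERSE-II (ATTGG, any base, CCACG), the XBP1-type element UPRE (TGACGTGG) and the ATF4-type element CARE (TGATGNAA). ERSE stood in 0.0769% of 35116 promoters, ERSE-II in 0.0541%, UPRE in 0.729% and CARE in 3.62%. The ERSE genes were HSPA5, HSP90B1, PDIA6 and XBP1, printed 5′ to 3′ on the strand of the gene with matches in capitals (250 bases before the start for HSPA5, and 15 bases to either side of the matches for the others).
HSPA5, chr9:125241344-125241593, minus strand: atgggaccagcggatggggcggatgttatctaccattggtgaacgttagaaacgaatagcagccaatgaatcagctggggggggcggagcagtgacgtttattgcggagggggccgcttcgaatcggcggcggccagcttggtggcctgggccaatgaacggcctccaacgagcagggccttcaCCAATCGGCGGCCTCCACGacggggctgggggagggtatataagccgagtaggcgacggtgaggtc
HSP90B1, chr12:103930201-103930354, plus strand: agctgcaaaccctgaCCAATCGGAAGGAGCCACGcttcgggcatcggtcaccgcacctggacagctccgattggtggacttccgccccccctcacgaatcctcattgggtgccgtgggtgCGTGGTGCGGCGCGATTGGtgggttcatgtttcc
PDIA6, chr2:10812838-10812886, minus strand: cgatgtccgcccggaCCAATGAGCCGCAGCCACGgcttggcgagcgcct
XBP1, chr22:28800588-28800636, minus strand: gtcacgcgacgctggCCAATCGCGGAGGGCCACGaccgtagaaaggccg

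ERSE-II was found upstream of HYOU1, HERPUD1 and SDF2L1, shown here for comparison with the ERSE genes. In HYOU1 the first run in capitals joins a UPRE and an ERSE-II that overlap, and in HERPUD1 the first run in capitals is a CARE.
HYOU1, chr11:119057259-119057408, minus strand: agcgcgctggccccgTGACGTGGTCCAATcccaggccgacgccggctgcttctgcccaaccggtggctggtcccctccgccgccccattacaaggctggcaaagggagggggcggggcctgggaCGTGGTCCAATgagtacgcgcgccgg
HERPUD1, chr16:56931951-56932050, plus strand: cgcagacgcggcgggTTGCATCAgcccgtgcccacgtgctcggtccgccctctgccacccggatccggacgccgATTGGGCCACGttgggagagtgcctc
SDF2L1, chr22:21642099-21642139, plus strand: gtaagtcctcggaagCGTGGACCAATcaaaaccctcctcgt

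DNAJB9, the ER gene with the largest rise, held none of the 4 motifs in this window. EDEM1, the other ER gene that rose, held none either, nor did DNAJC3, PDIA4 and SEL1L, which did not pass. A match is a description of letters, and the lack of one says only that these letters are not in this window. The 250 bases before the RefSeq start of DNAJB9 are printed for comparison with HSPA5.
DNAJB9, chr7:108569624-108569873, plus strand: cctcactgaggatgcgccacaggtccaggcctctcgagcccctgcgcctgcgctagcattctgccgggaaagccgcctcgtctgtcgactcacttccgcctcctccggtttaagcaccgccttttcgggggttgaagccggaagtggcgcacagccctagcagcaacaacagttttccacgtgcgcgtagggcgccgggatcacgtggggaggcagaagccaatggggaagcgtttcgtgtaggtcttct

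**Figure D2:**
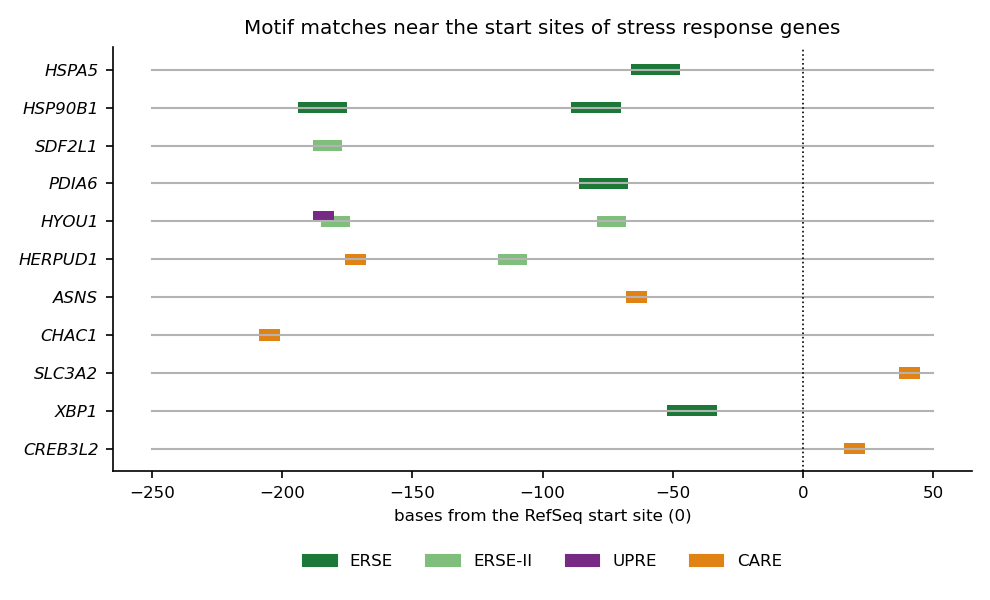
Each line is a gene with at least 1 match, from 250 bases before to 50 bases after a RefSeq start site (0, the first transcribed base), and coloured boxes are motif matches. ERSE and ERSE-II boxes lie upstream of 6 ER genes and XBP1, and CARE boxes near 5 genes.

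Of the 12 ATF4 targets, 3 rose (PPP1R15A, VLDLR and PHGDH), 1 fell (SLC3A2) and 8 did not pass, and voom called 2 higher and 2 lower. These are 25% higher and 8.33% lower, beside 18.8% and 13.3% of all tested genes. The median log2 change was 0.20, and it was alike in both shSASH1 libraries, 0.15 in replicate 1 and 0.18 in replicate 2 against the shControl mean.

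PPP1R15A (chromosome 19, 48872392 to 48876057, plus strand) encodes GADD34, the inducible subunit that directs a phosphatase to eIF2 and so ends the response. It had 144 and 111 TPM in shSASH1, against 58.4 and 58 TPM in shControl. Both shSASH1 libraries were well above the narrow shControl pair, 2.19 times in the means, the largest log2 change of the 32 genes (1.10 ± 0.13, adjusted p = 0.00798). VLDLR (chromosome 9, 2621834 to 2660053, plus strand), a lipoprotein receptor induced through PERK, was at 16.9 and 18.1 TPM in shSASH1 and at 10.4 and 10.6 TPM in shControl (log2 change 0.69 ± 0.10, adjusted p = 0.0105). The antisense gene VLDLR-AS1, whose exons overlap it, was at 4.2 and 3.41 TPM in shSASH1 and at 1.77 and 1.82 TPM in shControl.

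SLC3A2 (chromosome 11, 62856102 to 62888875, plus strand) encodes the heavy chain CD98 of the amino acid exchanger whose light chain LAT1 is encoded by SLC7A5. SLC3A2 fell to 324 and 304 TPM in shSASH1, against 463 and 447 TPM in shControl (log2 change -0.54 ± 0.06, adjusted p = 0.00713). Its partner SLC7A5 was at 638 and 509 TPM in shSASH1 and at 734 and 708 TPM in shControl. The SLC7A5 groups lay apart in the same direction, with a wide shSASH1 pair, and the difference missed the threshold (log2 change -0.34 ± 0.12, adjusted p = 0.0971). With voom SLC7A5 did pass (log2 change -0.41, adjusted p = 0.0344).

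Of the serine synthesis enzymes, PHGDH (chromosome 1, 119648411 to 119744226, plus strand), which catalyses the first step, stood at 280 and 283 TPM in shSASH1 and at 235 and 242 TPM in shControl. The difference was small and even (log2 change 0.24 ± 0.05, adjusted p = 0.0323) and did not pass with the replicate number as a block (adjusted p = 0.0898). PSAT1, the next enzyme, had 514 and 523 TPM in shSASH1, against 467 and 455 TPM in shControl (log2 change 0.17 ± 0.05, adjusted p = 0.0744). ASNS, asparagine synthetase and a standard ATF4 reporter gene, was the lowest of the 32 genes, at 3.49 and 5.07 TPM in shSASH1 and at 3.27 and 2.83 TPM in shControl (log2 change 0.37 ± 0.21, adjusted p = 0.241).

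The remaining ATF4 targets did not pass. TRIB3, a pseudokinase that feeds back on ATF4, was at 426 and 479 TPM in shSASH1 and at 505 and 500 TPM in shControl (log2 change -0.15 ± 0.08, adjusted p = 0.187). CHAC1, an enzyme that degrades glutathione, had 39.6 and 29.5 TPM in shSASH1, against 36.7 and 40.8 TPM in shControl, with overlapping groups. DDIT4, an inhibitor of mTORC1 signalling, also overlapped, at 186 and 226 TPM in shSASH1 and at 212 TPM in each shControl library. SESN2, a sestrin that restrains mTORC1, was at 47.8 and 47.5 TPM in shSASH1 and at 35.4 and 41.1 TPM in shControl (log2 change 0.31 ± 0.09, adjusted p = 0.0653). STC2, a secreted glycoprotein, measured 138 and 124 TPM in shSASH1 and 108 and 110 TPM in shControl (log2 change 0.26 ± 0.07, adjusted p = 0.0568). SESN2 and STC2 lay apart without passing.

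CARE was found upstream of ASNS and CHAC1, neither of which passed, and past a start site of SLC3A2 and of CREB3L2. The ATF4 targets with matches upstream are printed with 15 bases to either side and the match in capitals.
ASNS, chr7:97872454-97872491, minus strand: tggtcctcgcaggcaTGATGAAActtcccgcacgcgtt
CHAC1, chr15:40953247-40953284, plus strand: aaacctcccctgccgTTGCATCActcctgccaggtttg

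For the largest rise and the fall in the ATF4 group, PPP1R15A and SLC3A2, the 250 bases before the start nearest the annotated 5′ end held none of the 4 motifs. They are printed so that they can be set beside the ASNS and CHAC1 windows.
PPP1R15A, chr19:48872171-48872420, plus strand: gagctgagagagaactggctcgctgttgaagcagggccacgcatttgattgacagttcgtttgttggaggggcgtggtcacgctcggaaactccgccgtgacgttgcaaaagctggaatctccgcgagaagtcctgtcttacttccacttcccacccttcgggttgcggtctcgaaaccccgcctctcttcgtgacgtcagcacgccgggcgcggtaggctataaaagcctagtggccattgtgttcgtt
SLC3A2, chr11:62855859-62856108, plus strand: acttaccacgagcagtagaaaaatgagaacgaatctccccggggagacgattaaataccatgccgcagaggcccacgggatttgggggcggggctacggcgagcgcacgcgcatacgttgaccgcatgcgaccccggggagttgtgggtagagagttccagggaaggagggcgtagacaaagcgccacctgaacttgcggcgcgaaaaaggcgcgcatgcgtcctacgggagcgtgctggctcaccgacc

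**Figure D3:**
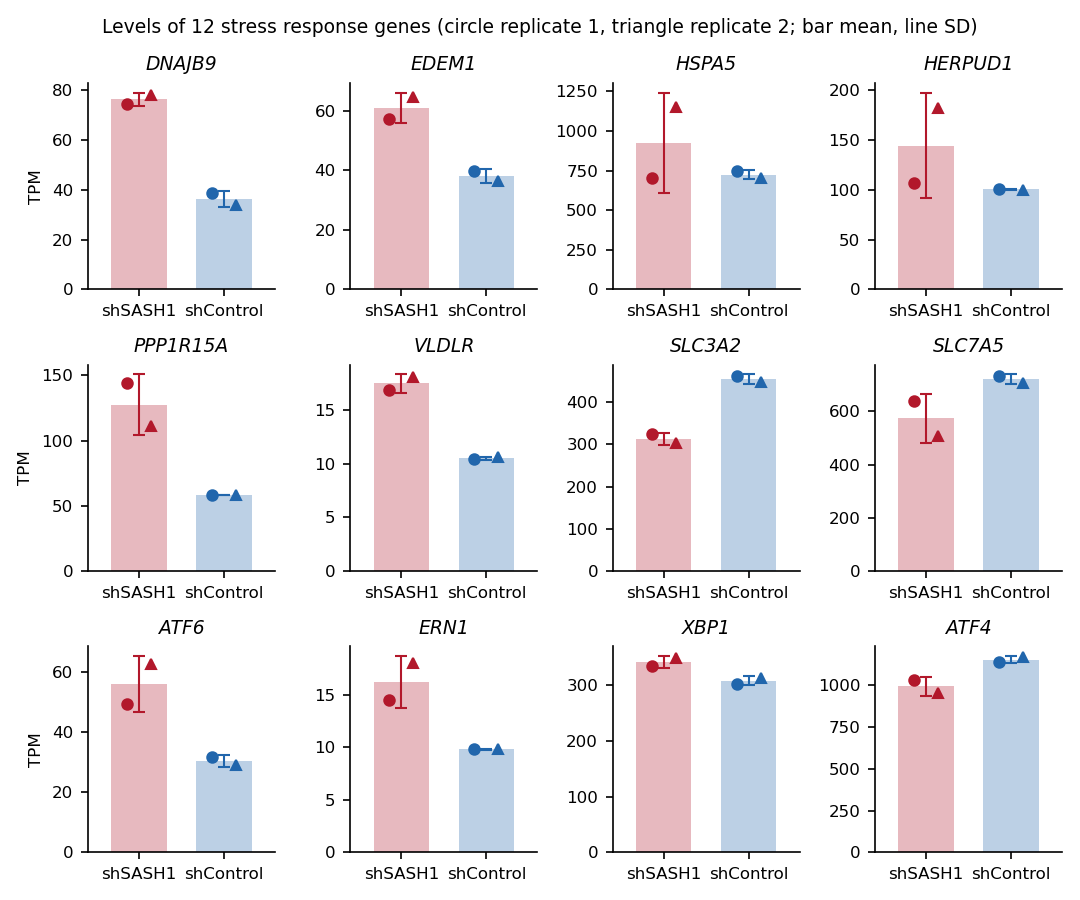
Each panel gives TPM of 1 gene on an axis from 0, with shSASH1 left of shControl. Bars are means, lines SD, circles replicate 1 and triangles replicate 2 (n = 2 per group). HSPA5 and HERPUD1 have 1 high shSASH1 library each, while DNAJB9, EDEM1, PPP1R15A and VLDLR have both above shControl and SLC3A2 has both below.

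Of the sensors, ATF6 and ERN1 rose and EIF2AK3 did not pass. ATF6 (chromosome 1, 161766294 to 161964070, plus strand) was at 49.4 and 62.6 TPM in shSASH1, against 31.8 and 29 TPM in shControl (log2 change 0.85 ± 0.13, adjusted p = 0.0144). The 206 tested genes within 10 Mb of ATF6 had a median log2 change of 0.32, and centred on them ATF6 changed by 0.56 (adjusted p = 0.0428). ERN1 (chromosome 17, 64039142 to 64130819, minus strand) had 14.5 and 18 TPM in shSASH1 and 9.87 and 9.81 TPM in shControl, with both shSASH1 libraries higher (log2 change 0.66 ± 0.13, adjusted p = 0.0247). EIF2AK3 was at 22 and 28.8 TPM in shSASH1 and at 21.4 and 20.1 TPM in shControl (log2 change 0.27 ± 0.15, adjusted p = 0.224).

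Of the transcription factors, ATF4 and XBP1, which act downstream of PERK and IRE1, did not pass with limma. ATF4, at 1032 and 953 TPM in shSASH1 and at 1135 and 1167 TPM in shControl, had the highest group means of the 32 genes (log2 change -0.21 ± 0.07, adjusted p = 0.0775), and with voom it was called lower (log2 change -0.29, adjusted p = 0.0225). XBP1 was at 335 and 350 TPM in shSASH1 and at 303 and 314 TPM in shControl (log2 change 0.15 ± 0.06, adjusted p = 0.111). Both sets of values were narrow, with groups apart by little.

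Of the other factors, DDIT3 (chromosome 12, 57516588 to 57521737, minus strand), which encodes CHOP, a pro-apoptotic factor induced by ATF4, rose to 50.5 and 57.6 TPM in shSASH1, against 40.4 and 35.1 TPM in shControl (log2 change 0.51 ± 0.11, adjusted p = 0.0297). The DDIT3 call was lost without shSASH1 replicate 2 (adjusted p = 0.0636) and without a variance trend (0.0573). Its exons overlap those of MARS1, on the other strand and more abundant, at 188 and 165 TPM in shSASH1 and at 173 and 171 TPM in shControl. CREB3L2 (chromosome 7, 137874979 to 138002067, minus strand), a membrane-bound factor cleaved in the Golgi like ATF6, had 56.7 and 59.9 TPM in shSASH1 and 32.3 and 32.6 TPM in shControl. Both pairs were tight and far apart (log2 change 0.83 ± 0.07, adjusted p = 0.00391). ATF5, a relative of ATF4 under the same translational control, was at 10.7 and 8.19 TPM in shSASH1 and at 12 and 14.2 TPM in shControl (log2 change -0.44 ± 0.17, adjusted p = 0.11). The exons of ATF5 overlap those of the more abundant NUP62 on the other strand. NUP62 was at 68 and 58.2 TPM in shSASH1 and at 58.1 and 57.4 TPM in shControl. CEBPB, a bZIP partner of ATF4, measured 438 and 533 TPM in shSASH1 and 558 and 577 TPM in shControl (log2 change -0.23 ± 0.11, adjusted p = 0.167).

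The shSASH1 libraries differed from each other in the ER group. Replicate 2 lay above replicate 1 in 11 of 11 ER genes, by a median of 0.36 log2 units, in 3 of 3 sensors, by 0.34, and in 6 of 12 ATF4 targets, by 0.00. Over all tested genes replicate 2 was above replicate 1 in 57.4%, by a median of 0.05. The split between ER genes and ATF4 targets was less clear in further lists, described below. Replicate 2 was higher in 15 of 16 other ER folding genes (median 0.15) and 16 of 21 other degradation and secretory genes (0.05). It was also higher in 17 of 24 other amino acid and ATF4 genes (0.14), but in only 4 of 13 aminoacyl-tRNA synthetases (-0.07). The summed level of the 11 ER genes was 2653 and 3664 TPM in shSASH1 and 2646 and 2513 TPM in shControl, so that shSASH1 replicate 1 lay close to shControl replicate 1 and replicate 2 alone stood far above. For the 12 ATF4 targets the sum was 2757 and 2658 TPM in shSASH1 and 2868 and 2828 TPM in shControl. In shControl, replicate 2 was below replicate 1 in 11 of 11 ER genes, by a median log2 difference of -0.08. In shSASH1 replicate 2 some other values stood apart too. KRT17, a basal keratin and the epithelial marker that differed most, was at 560 and 227 TPM in shSASH1 and at 466 and 465 TPM in shControl. KRT5 was also lower in replicate 2, at 1225 and 758 TPM in shSASH1, as were CDH1 and KRT8 by less. EPCAM (543 and 559 TPM), KRT18 (733 and 715) and EGFR (2191 and 2203) were close between the shSASH1 libraries. Replicate 2 of shSASH1 also had the fewest rebuilt reads. The part of these differences in the ER values was not tested. Without shSASH1 replicate 2, HSPA5 had a log2 change of -0.04 and HERPUD1 of 0.09, and without replicate 1 they had 0.66 and 0.85.

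**Figure D4:**
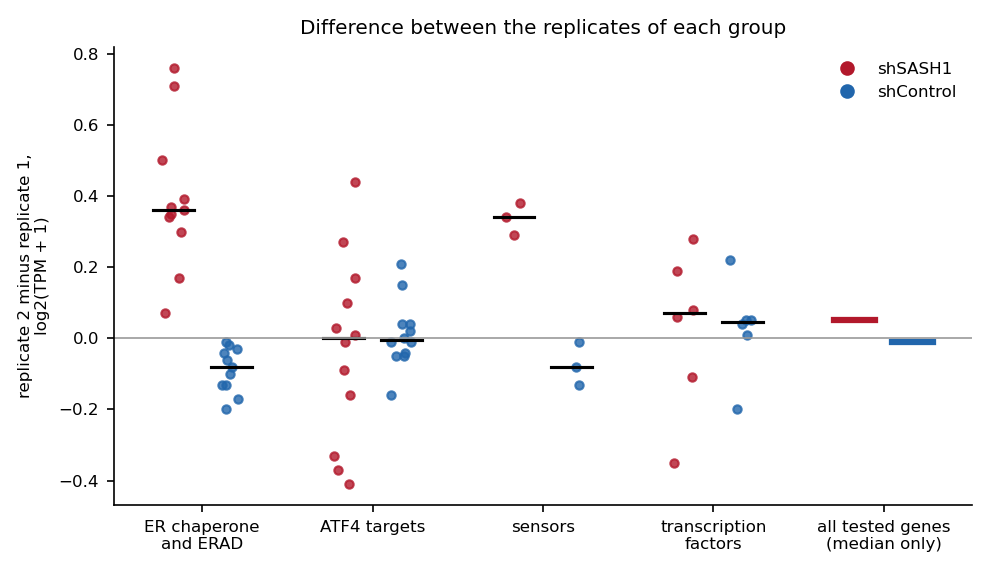
The y axis is replicate 2 minus replicate 1 on the log2(TPM + 1) scale, each dot is 1 gene, black lines are group medians, and the last column shows only the medians over all tested genes. Red is shSASH1 and blue is shControl. In the ER group all red dots lie above 0 and all blue dots below 0.

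The median change of the tested genes within 10 Mb was set beside that of each gene, to show where a whole region was higher or lower. The 65 neighbours of TRIB3 had a median log2 change of -0.56, and centred on them TRIB3 changed by 0.37 in the other direction (adjusted p = 0.0271). STC2, whose 108 neighbours had a median of -0.30, changed by 0.58 when centred (adjusted p = 0.016). SESN2 went the other way: its 234 neighbours had a median of 0.24, and its centred change was 0.04 (adjusted p = 0.773). PSAT1, with neighbours at a median of 0.15, likewise changed by only 0.02 when centred (adjusted p = 0.829). For DNAJB9, EDEM1, PPP1R15A, SLC3A2, ERN1, DDIT3 and CREB3L2 the neighbours' medians lay between -0.08 and 0.07. VLDLR had 25 neighbours with a median of 0.17 and passed when centred (0.59, adjusted p = 0.0174). PHGDH, with neighbours at a median of 0.00, did not pass when centred (adjusted p = 0.087).

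Further genes of the same pathways were taken from 7 lists. The lists were chosen with earlier results of these data known, so their shares beside all tested genes are descriptions and not independent results. Other ER folding genes had 4 of 16 higher and 1 lower, with a median log2 change of 0.18. These are 25% and 6.25%, near the 18.8% and 13.3% of all tested genes, whose median was 0.06. ERO1A, the oxidase that recharges protein disulfide isomerases, rose to 59.7 and 63.7 TPM in shSASH1, against 28.3 and 27.5 TPM in shControl (log2 change 1.12, adjusted p = 0.00283), and the isomerase PDIA5 (0.60) and the reductase DNAJC10 (0.54) also rose, PDIA5 not when centred on its neighbours (adjusted p = 0.0679) or with quantile normalization (0.0635). The lectin chaperone calnexin, CANX, fell to 858 and 911 TPM in shSASH1, against 1234 and 1162 TPM in shControl (log2 change -0.44, adjusted p = 0.0147), in a region whose neighbours had a median of -0.30, and its centred change of -0.12 did not pass (adjusted p = 0.289). Its soluble relative CALR, the most abundant of the list, was at 1152 and 1400 TPM in shSASH1 and at 1123 and 1105 TPM in shControl and did not pass (adjusted p = 0.245).

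Among other ER-associated degradation and secretory genes, many of them XBP1 targets, 10 of 21 tested were higher and 3 lower (47.6% and 14.3%, against 18.8% and 13.3% of all tested genes), with a median of 0.31. Voom called 8 higher and 3 lower, against 17.6% and 19.5% of all tested genes. The 3 that were lower with limma were SEC63 (-0.41), SEC23B (-0.35) and HM13 (-0.24). The ATPase VCP, which pulls proteins out of the ER membrane, stood at 815 and 843 TPM in shSASH1 and at 220 and 223 TPM in shControl (log2 change 1.90, adjusted p = 0.00151). Its 87 neighbours on chromosome 9 had a median of 1.16, and centred on them VCP changed by 0.73 (adjusted p = 0.00724). The COPII coat gene SEC24D rose to 19.8 and 32.5 TPM in shSASH1, against 7.51 and 6.97 TPM in shControl (1.68). The degradation genes ERLEC1 (0.69) and EDEM2 (0.63) rose as well.

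Other amino acid and ATF4 genes had 9 of 24 tested higher and 0 lower with limma, against 18.8% and 13.3% of all tested genes, and a median of 0.32. At an unadjusted limma p under 0.05, 14 were higher and 2 lower, against 26.7% and 19.6%. Voom called 9 higher and 2 lower, against 17.6% and 19.5%. ATF3, a stress-induced repressor, was at 49.3 and 50 TPM in shSASH1 and at 12.3 and 12.9 TPM in shControl (log2 change 1.90, adjusted p = 0.00156). The glutamine transporter SLC38A2 rose to 331 and 370 TPM in shSASH1, against 138 and 127 TPM in shControl (1.40). CTH, of the transsulfuration pathway (1.0, and 0.53 centred on its neighbours), and the mitochondrial folate enzyme ALDH1L2 (0.74) rose. The most abundant, EIF4EBP1, did not pass (0.10, adjusted p = 0.243), nor did GDF15, which had the largest fall of the list (-0.97). Of 13 aminoacyl-tRNA synthetases 3 rose and 1 fell, with a median of 0.04. The 23.1% and 7.69% are near the 18.8% and 13.3% of all tested genes. WARS1 (0.65), YARS1 (0.34) and AARS1 (0.26) were higher and SARS1 (-0.41) lower, while centred on their neighbours YARS1, AARS1 and SARS1 did not pass (adjusted p = 0.943, 0.0837 and 0.0732). AARS1 did not pass with the replicate block (0.0818) or voom (0.0864) either. GARS1, the most abundant, was at 442 and 416 TPM in shSASH1 and at 430 and 427 TPM in shControl.

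In the eIF2 module 3 of 18 genes were higher and 3 lower, with a median of 0.10. Each is 16.7%, near the 18.8% and 13.3% of all tested genes. PPP1R15B, the constitutive counterpart of PPP1R15A, rose to 132 and 157 TPM in shSASH1, against 72.2 and 70.7 TPM in shControl (log2 change 1.0, adjusted p = 0.0057), with neighbours at 0.43 and a centred change of 0.58 (adjusted p = 0.0205). PPP1CA, the phosphatase catalytic subunit that both direct to eIF2, fell (-0.52), as did the guanine exchange factor subunit EIF2B4 (-0.34), whose call was lost with the replicate block (adjusted p = 0.055). EIF2S3, a subunit of eIF2 on chromosome X, fell (-0.42) with neighbours at -0.70 and changed by 0.27 in the other direction when centred (adjusted p = 0.0402). EIF2S2, the most abundant, did not pass (0.06, adjusted p = 0.395).

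The list of Golgi and membrane stress factors had 3 of 10 higher and 2 lower, against 18.8% and 13.3% of all tested genes, with a median of 0.15. CREB3, a relative of CREB3L2, was at 299 and 320 TPM in shSASH1 and at 88.2 and 86.2 TPM in shControl (log2 change 1.81, or 0.64 centred on neighbours that had a median of 1.17). CREB3L1 was low, at 1.92 and 2.22 TPM in shSASH1 and at 0.253 and 0.144 TPM in shControl (1.36, adjusted p = 0.0164). CREB3L4 (-0.84) and MBTPS2, the site-2 protease that cleaves ATF6 (-0.80, with neighbours at -0.68 and a centred change of -0.11, adjusted p = 0.413), fell. Of 9 tested genes of ER-linked apoptosis, 5 were higher and 0 lower with limma, against 18.8% and 13.3% of all tested genes, with a median of 0.34. At an unadjusted limma p under 0.05 there were 7 and 0, against 26.7% and 19.6%, and with voom 5 and 0, against 17.6% and 19.5%. CASP4, an inflammatory caspase at the ER, stood at 47.6 and 69.8 TPM in shSASH1 and at 22.3 and 21.3 TPM in shControl (1.36). BBC3, the pro-apoptotic protein PUMA (0.98), the kinase MAP3K5 (0.73) and the death receptor TNFRSF10B (0.61) also rose, TNFRSF10B not when centred on its neighbours (adjusted p = 0.0695) or with quantile normalization (0.0668). BCAP31, the most abundant, did not pass (0.07).

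**Figure D5:**
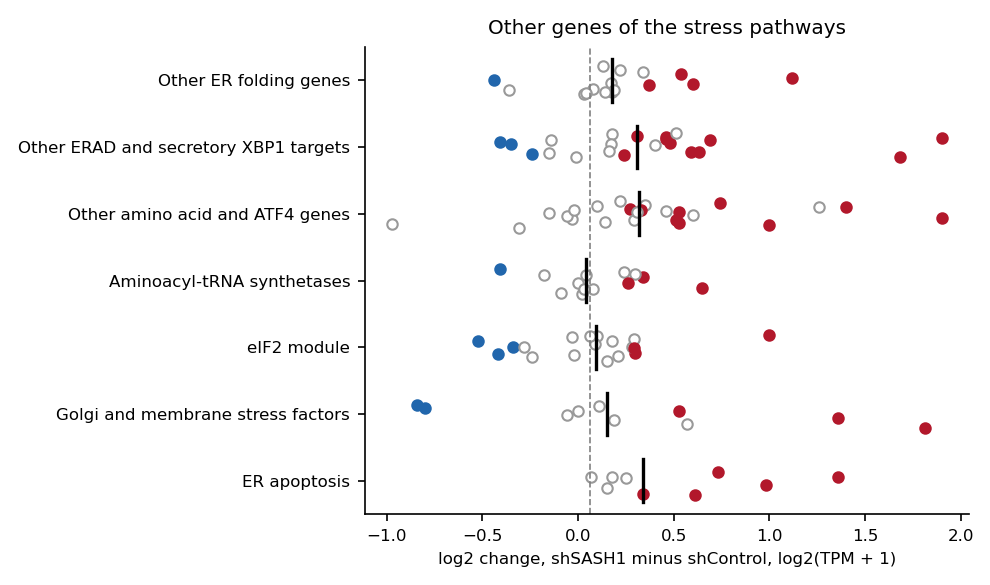
Each dot is 1 tested gene of a list, the x axis is its log2 change (shSASH1 minus shControl), red dots passed the test as higher, blue as lower, and open dots did not pass. Black lines are list medians, from 0.04 to 0.34, and the dashed line is the median of all tested genes, 0.06.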

How the data were processed

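RNA-seq libraries were made from TRIzol RNA with an NEBNext Ultra kit, per the labels' protocols, for 2 shSASH1 and 2 shControl samples, grouped by title. Per the labels and the deposited file, the authors' values are TPM by Ensembl gene identifier. STAR, DESeq2 and hg38 are named in the submitters' processing notes, with neither version nor role. Counter, annotation, gene lengths and strand setting: not given in the sources used here. The table sums to 922024 and 910830 TPM in shSASH1 and to 924683 and 926711 TPM in shControl; since TPM is a share of a total, a rise of abundant transcripts lowers the rest.

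All 26518 identifiers matched GENCODE release 29, from which symbols and 1-based coordinates were taken. Estimated reads are TPM times exon-union length, scaled so that as many small values as possible became integers, and 89.0% to 89.5% of values no larger than 20 reads lay within 0.05 of one. The test was limma 3.58.1 (R 4.3.3; lmFit, eBayes with a variance trend, two-sided, no covariate) on log2(TPM + 1), for genes averaging 1 TPM or more, with Benjamini-Hochberg adjustment over all 14458 genes at 0.05. With 2 libraries per group, the smallest two-sided p of an exact permutation is 0.333. The procedure was also run on simulated data in which both groups had the same spread and few genes changed. Since the spread here was wider in shSASH1, that run cannot give the rate of false calls in these data. Tables and figures used Python 3.11.15, pandas 2.3.3, numpy 2.4.6 and matplotlib 3.10.9.

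Promoters are RefSeq sequences (GRCh38.p14). Neighbours were tested genes within 10 Mb on either side. The rule for named genes took SASH1, all 32 genes and, from each further list, up to 4 genes that passed with the largest change and the most abundant one. SEC63, SEC23B, HM13 and GDF15 were named outside this rule, because they were lower. Genes, lists and roles were chosen with earlier results of these data known, and ERSE-II was added later. Alternatives changed the pseudocount (0.1 TPM), filter (none, 5 TPM or 20 rebuilt reads), scaling, variance model, block, unit (voom), regional centring, minimum fold and libraries.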

Additional observations from a re-analysis of the deposited data

How the results depend on the processing

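Of the 10 genes that passed, 8 kept their call and direction in all 11 settings that kept the 4 libraries and set no minimum fold; the exceptions were PHGDH and DDIT3, which missed the threshold without a variance trend (adjusted p = 0.0944 and 0.0573). PHGDH also missed it with median-of-ratios scaling (0.104), the replicate block (0.0898), voom on rebuilt reads (0.0809) and centring on neighbours (0.087). A minimum absolute log2 change of 1 left 2 higher and 0 lower of the 32 genes (1 and 0 ATF4 targets, 1 higher ER gene, 0 sensors and factors), and 734 higher and 554 lower of all genes. Voom called 3 lower of the 32, with 2 ATF4 targets and 1 factor among them. Over all genes, 2712 were higher and 1918 lower, or 58.6% higher, against 48.4% (2280 and 2434) with quantile normalization and 47.4% (2539 and 2813) with voom. The ATF4 median was 0.14 with median-of-ratios scaling, 0.15 with quantile normalization and 0.13 with voom. In the same settings the ER median was 0.30, 0.30 and 0.28. The median over all tested genes was lower there too, at 0.00, -0.02 and -0.02, against 0.06 in the main setting. HSP90B1 changed direction with centring (-0.01), median-of-ratios scaling (-0.02) and voom (-0.04), and TRIB3 with centring (0.37).

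Leaving out 1 library leaves its group with 1, so the spread comes from the other pair and the lone library is assumed to vary alike; no gene passed limma without either shControl library (2117 higher and 1329 lower at an unadjusted p under 0.05 without replicate 1, and 1999 and 1327 without replicate 2). Calls over all genes then ranged from 0 to 4543 higher and from 0 to 3185 lower; among the 32, from 0 to 22 higher and 0 to 6 lower. The ER group had 0 to 10 higher, the ATF4 targets 0 to 6 higher and 0 to 4 lower, and the sensors and factors 0 to 6 higher and 0 to 2 lower. All 10 called genes kept their direction in all 4 such fits. SASH1 ranged from -1.73 to -1.54, with adjusted p = 0.106 without shControl replicate 1 and 0.104 without replicate 2. HSPA5 (-0.04), HSP90B1 (-0.16) and CHAC1 (0.03) changed direction without shSASH1 replicate 2, and DDIT4 (0.09) without shSASH1 replicate 1; the other shSASH1 library left out gave 0.66, 0.23, -0.38 and, for DDIT4, -0.18.

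With the replicate number as a block, 8 of the 32 genes were higher and 1 lower, and 2372 and 1557 of all genes. Deviations of same-numbered libraries had a correlation of -0.03 across genes, so the numbers were not taken as pairs. The filter at 20 rebuilt reads, which added STC2 (adjusted p = 0.0451), was chosen after seeing the data.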
